A study of Homo sapiens with 4 samples.

Results

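The genes of the cytosolic and mitochondrial aminoacyl-tRNA synthetases were picked from an RNA-seq count table by a rule on symbols alone. Earlier results of these data were known when the set was chosen. The rule found 38 of the 20913 genes in the table, of which 21 encode cytosolic enzymes, GARS1 and KARS1 among them, and 17 encode mitochondrial enzymes. The study compared 2 libraries of T98G cells with LGP2 overexpressed, replicates 2 and 3, with 2 libraries of T98G cells carrying a vector, also replicates 2 and 3. T98G is an established human glioblastoma line. LGP2, encoded by DHX58, belongs to the cytoplasmic helicases that sense viral RNA, and the column names carry the word flag for the overexpressing cells. The labels name astroblastoma as the cell type and state neither a time after transfection nor whether replicates came from separate cultures. Every p-value therefore rests on the spread among these 4 libraries alone, and that spread may be technical. The growth protocol names 293T cells, whereas the titles and the cell line field give T98G, and the treatment field mentions LGP2 overexpression for vector libraries too, so groups follow the titles. In bulk RNA, a change in the number of expressing cells and a change in RNA per cell cannot be told apart.

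Aminoacyl-tRNA synthetases load each transfer RNA with its amino acid, and the ribosome depends on them for every codon it reads. Human cells keep separate sets for the cytosol and for the mitochondrion, both encoded in the nucleus, while glycine and lysine enzymes for both places come from the single genes GARS1 and KARS1. Mitochondria have no glutaminyl synthetase of their own: EARS2 charges their glutamine tRNA with glutamate and an amidotransferase converts it. Several cytosolic enzymes sit together in a multisynthetase complex, and many cytosolic synthetase genes belong to the program that the transcription factor ATF4 induces when amino acids run short.

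Library totals ran from 56033379 to 63932198 counts. DHX58 had 30509 and 34045 counts in the LGP2 overexpression libraries, against 377 and 571 in the vector libraries, and edgeR gave it a log2 fold change of 6.09 with SE 0.24 and adjusted p = 1.9e-06. These counts do not distinguish the construct from the endogenous transcript. Among 9 glioblastoma or astroglial markers, the intermediate filament gene VIM stood at 3352 and 2842 CPM (counts scaled to library size) in LGP2 overexpression libraries, against 4027 and 3092 CPM in vector libraries, and the adhesion receptor gene CD44 at 1657 and 1754 CPM, against 2198 and 1652 CPM. The matrix gene FN1 did not overlap, at 158 and 141 CPM in LGP2 overexpression libraries, against 256 and 190 CPM in vector libraries, with a log2 fold change of -0.58 and an edgeR adjusted p = 0.998, and the secreted glycoprotein gene CHI3L1 was at 0.43 with overlap. The astroglial filament gene GFAP stayed under 1 CPM in each library, as did the neural stem cell filament gene NES, while S100B and SOX2 were not analysed here. Summed over 7 microglia and macrophage markers, of which 3 were in the table, levels were 90.3 and 80.9 CPM in LGP2 overexpression libraries, against 115 and 94.5 CPM in vector libraries, nearly all of it from CD68.

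An ATF4-type motif lay near the start of 7 cytosolic synthetase genes. RefSeq promoter windows on GRCh38.p14, from 250 bases before to 50 after an annotated start, were matched by symbol for 30 of the 38 genes; AARS2, LARS1, TARS3, VARS1, VARS2 and YARS1 were among those with none. The C/EBP-ATF response element, bound by ATF4 dimers, was searched as TGATGNAA on both strands. It lay in the windows of 8 of these 30 genes, against 4.5% of all 27305 genes with a window and 2.9% of the 11375 such genes tested here. By role, it lay in 7 of the 10 windowed genes commonly listed as ATF4 targets, in 0 of the other 6 cytosolic genes and in 1 of 14 mitochondrial genes. ATF4 acts through elements of this kind when amino acids run short, but whether it uses any of these matches was not tested. The 30-base stretches around the matches are shown with the 8 matched letters in capitals, 5′ to 3′ on the gene's own strand.
AARS1: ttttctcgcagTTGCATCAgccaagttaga
CARS1: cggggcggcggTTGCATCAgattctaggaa
GARS1: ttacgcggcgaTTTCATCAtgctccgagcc
IARS1: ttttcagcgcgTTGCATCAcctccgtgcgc
MARS1: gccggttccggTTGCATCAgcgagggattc
NARS1: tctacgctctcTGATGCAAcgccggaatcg
TARS1: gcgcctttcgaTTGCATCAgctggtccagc
YARS2: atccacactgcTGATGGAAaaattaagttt

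The stretches lie at chr16:70289675-70289704 on the minus strand for AARS1, chr11:3057407-3057436 minus for CARS1, chr7:30594834-30594863 plus for GARS1 and chr9:92293692-92293721 minus for IARS1. They lie at chr12:57488053-57488082 plus for MARS1, chr18:57621804-57621833 minus for NARS1, chr5:33440956-33440985 plus for TARS1 and chr12:32756076-32756105 minus for YARS2. The same 8 letters, TTGCATCA, recur in AARS1, CARS1, IARS1, MARS1 and TARS1, and NARS1 carries them on the other strand. In CARS1, MARS1 and IARS1 the match begins 2, 4 and 13 bases before the start, and in AARS1 and YARS2 it begins 187 and 197 bases before. A match describes these letters only, not binding.

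Many synthetase genes start close to the start of a gene on the opposite strand. In GENCODE 29, 10 of the 38 (26.3%) had an opposite-strand protein-coding gene whose principal transcript started within 1000 bases, against 10.0% of all 19969 protein-coding genes. Starts on either side were counted, so some of these pairs overlap. The 19969 include genes not expressed here, and the share over tested genes was not computed. The partners included TERF2IP for KARS1, S100PBP for YARS1, WDR25 for WARS1, UBFD1 for EARS2, LYRM4 for FARS2, ORC3 for RARS2 and the mitochondrial ribosomal protein gene MRPS12 for SARS2. HARS1 and HARS2, the cytosolic and mitochondrial histidine enzymes, are each other's partner, and both count among the 10. RefSeq places their starts on either side of the 84 bases at chr5:140691371-140691454, so by RefSeq 1 short stretch lies upstream of 2 members. In GENCODE 29 the 2 genes overlap instead, with the minus-strand HARS1 reaching base 140691862 and the plus-strand HARS2 starting at base 140691426. The RefSeq stretch is shown on the plus strand, reading toward HARS2, with both matches to CCGGAAGT, an ETS-type core searched on both strands, in capitals. That core lay in the windows of 8 of 30 synthetase genes, against 4.9% of all genes with a window and 9.4% of those tested here. HARS1 and HARS2 make up 2 of the 8 through these same bases.
HARS1 to HARS2: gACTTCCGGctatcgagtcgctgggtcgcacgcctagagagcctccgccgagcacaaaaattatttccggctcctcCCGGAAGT

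Exons of 18 synthetase genes overlap an opposite-strand gene in GENCODE 29 and those of 6 share bases with a gene on the same strand, VARS2 with GTF2H4, HARS2 with ZMAT2 and SARS2 with AC011455.2 among them. The use of strand in counting is not given in the sources used here, so reads in these overlaps, such as those of MARS1 with the stress gene DDIT3, cannot be assigned with certainty.

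Cytosolic synthetase transcripts were the more abundant set. All levels between genes are given as CPM per kilobase of the principal transcript in GENCODE 29, averaged over the 4 libraries unless a group is named. The median over the 21 cytosolic genes was 44.6 and 50.2 CPM per kilobase in LGP2 overexpression libraries, against 49.8 and 41.5 in vector libraries. For the 17 mitochondrial genes it was 9.91 and 10.1 in LGP2 overexpression libraries, against 8.88 and 10.2 in vector libraries. All 38 genes together took 0.400% and 0.424% of counts in LGP2 overexpression libraries, against 0.384% and 0.371% in vector libraries, so both overexpressing libraries lay above both vector libraries in that share. Summed over the members in CPM, the groups overlapped, at 3981 and 4123 in LGP2 overexpression libraries, against 4039 and 3642 in vector libraries.

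KARS1, the lysine enzyme of both compartments, was the most abundant member at 173 CPM per kilobase. Its level was 364 and 356 CPM in LGP2 overexpression libraries, against 349 and 317 CPM in vector libraries, narrowly without overlap, with a log2 fold change of 0.11 (SE 0.15). SARS1, the cytosolic serine enzyme, came next at 131 CPM per kilobase, with 263 and 230 CPM in LGP2 overexpression libraries, against 270 and 211 CPM in vector libraries. YARS1 (tyrosine), RARS1 (arginine), AARS1 (alanine) and CARS1 (cysteine) followed between 73.7 and 78.7 CPM per kilobase. At the low end of the cytosolic set stood VARS1, the valine enzyme, at 16.6 CPM per kilobase. TARS3, a paralogue of the threonine enzyme, was lowest at 1.76 and stood apart from the other cytosolic genes.

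**Figure D1:**
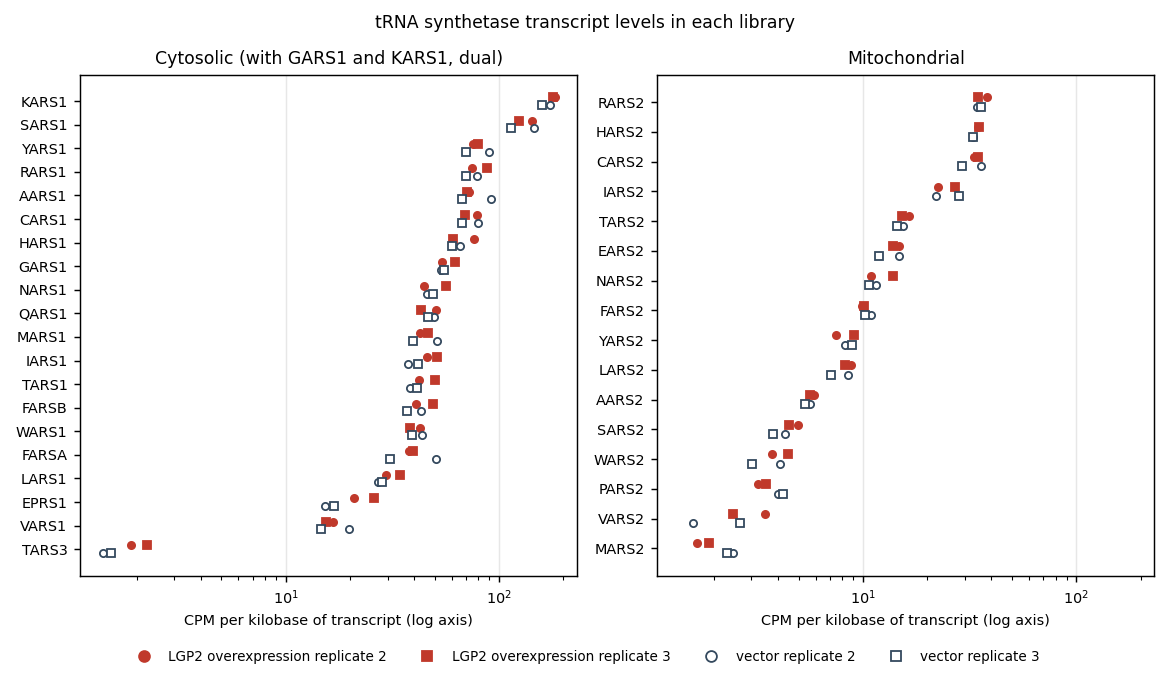
Transcript levels of 36 synthetase genes in each library, in CPM per kilobase of transcript on a log axis, with cytosolic genes on the left and mitochondrial genes on the right, ordered by mean level; filled red symbols are LGP2 overexpression libraries, open symbols vector libraries. KARS1 at 173 and TARS3 at 1.76 CPM per kilobase bound the cytosolic set, and the 4 libraries of a gene sit close together beside the differences between genes.

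Mitochondrial members spanned a 17.2-fold range. RARS2, the mitochondrial arginine enzyme, was highest at 35.8 CPM per kilobase, with 69.6 and 63.3 CPM in LGP2 overexpression libraries, against 62.3 and 65.2 CPM in vector libraries. HARS2 followed at 33.8 CPM per kilobase, and CARS2 (cysteine) at 33.1. The lowest were MARS2, the methionine enzyme, at 2.09 CPM per kilobase and VARS2, the valine enzyme, at 2.55.

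In each of 17 pairings of a mitochondrial enzyme with the cytosolic enzyme for the same amino acid, the cytosolic transcript was the more abundant per kilobase in all 4 libraries. EPRS1, which joins the glutamate and proline enzymes in 1 chain, was paired with both EARS2 and PARS2, and FARSA, the catalytic subunit of the cytosolic phenylalanine enzyme, with FARS2. The median ratio was 3.85. SARS1 stood furthest above its partner, at 28.5 and 27.6 times SARS2 in LGP2 overexpression libraries, against 33.9 and 30.3 times in vector libraries. MARS1 was at 25.4 and 24.4 times MARS2 in LGP2 overexpression libraries, against 20.7 and 17.3 times in vector libraries, without overlap. The closest pairs were EPRS1 over EARS2, at 1.42 and 1.89 in LGP2 overexpression libraries, against 1.03 and 1.42 in vector libraries, and IARS1 over IARS2, the isoleucine enzymes, at 2.04 and 1.88, against 1.70 and 1.48. HARS1 stood at 2.19 and 1.73 times HARS2 in LGP2 overexpression libraries, against 2.00 and 1.83 times in vector libraries, with overlap.

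**Figure D2:**
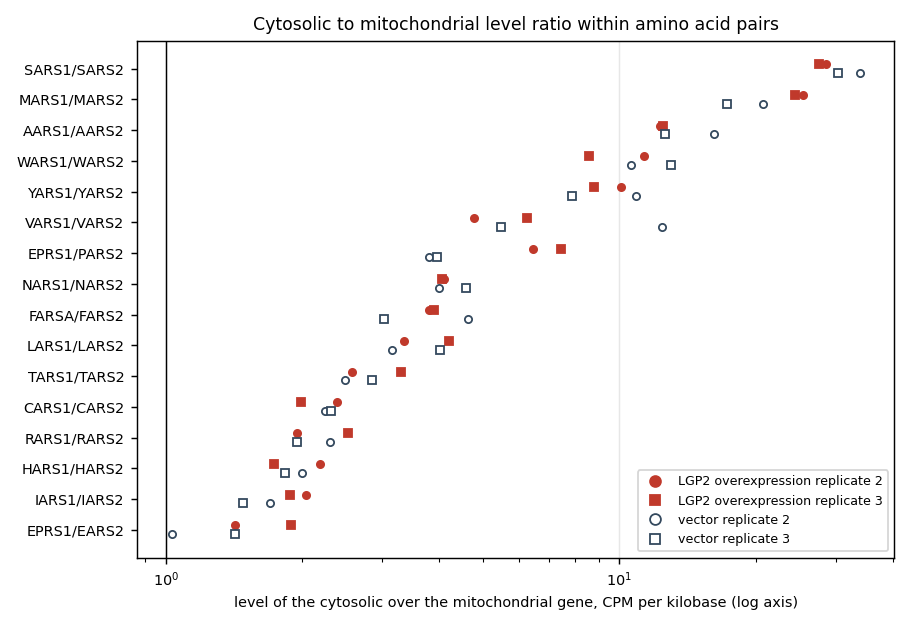
Ratio of the cytosolic to the mitochondrial gene's level in CPM per kilobase, on a log axis, for 16 amino acid pairs in each library; filled red symbols are LGP2 overexpression libraries, open symbols vector libraries, and the vertical line marks equal levels. All points lie above 1, from 1.03 for EPRS1/EARS2 to 33.9 for SARS1/SARS2, and the EPRS1/PARS2 ratios were 6.45 and 7.43 with LGP2, against 3.81 and 3.97 with vector.

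With LGP2 overexpressed, no synthetase gene passed the test, and fitted differences were small. All 38 members passed the filter on low counts, the smallest count being 284. Of the members, 0 were called higher, against 0.0168% of the 17863 genes tested, and 0 were called lower, against 0% (edgeR's quasi-likelihood test, Benjamini-Hochberg adjusted p under 0.05); adjusted p ran from 0.963 to 0.999. At an unadjusted p under 0.05, 1 member, EPRS1, was higher, against 3% of all genes, and 0 were lower, against 1.46%. DESeq2 and limma-voom each called 0 members. Without vector replicate 3, EPRS1 had a log2 fold change of 0.61, in a fit that takes its spread from the LGP2 overexpression pair alone.

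The intervals limit how large a change could be. For 36 of the 38 members the 95% interval of the log2 fold change excluded a 2-fold change in either direction, against 61.1% of all genes tested. For 29 members (76.3%) it excluded a 1.5-fold change, against 34.8% of all genes. The median SE was 0.16 over the members, against 0.23 over all genes, and narrower intervals exclude more. TARS3 and VARS2, both of low level, were the exceptions at 2-fold, with intervals of -0.05 to 1.06 and -0.15 to 1.10. Fitted values lay above 0 for 26 members (68.4%) and below 0 for 12, with a median of 0.09, against -0.01 over all genes. Of all genes tested, 48.7% lay above 0, the share to set beside each count above 0 given here. By compartment, 14 of 21 cytosolic genes lay above 0 with a median of 0.10, and 12 of 17 mitochondrial genes with a median of 0.08. The cytosolic median was 0.18 without vector replicate 2, and 0.04 without vector replicate 3 or without LGP2 overexpression replicate 3. Within the 17 pairs, the mitochondrial minus the cytosolic log2 fold change had a median of -0.0043 and split 8 above and 9 below 0.

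**Figure D3:**
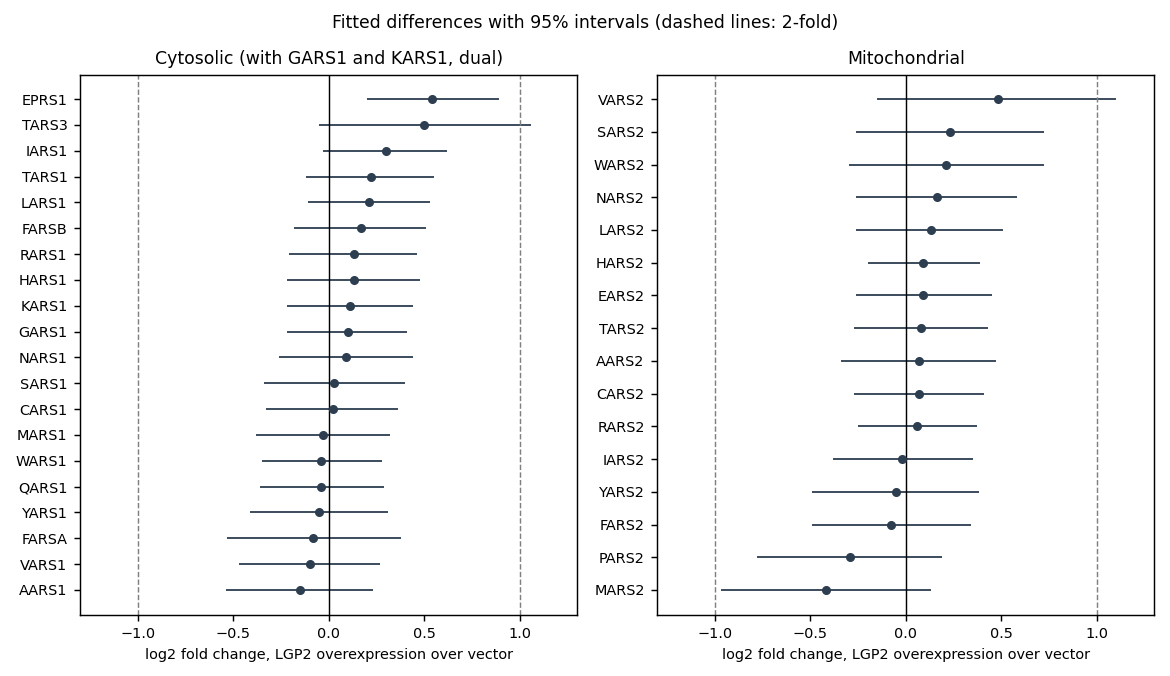
Fitted log2 fold change of LGP2 overexpression over vector for 36 synthetase genes (points) with its 95% interval (bars), cytosolic genes on the left and mitochondrial genes on the right; dashed lines mark a 2-fold change. EPRS1 has an interval that leaves out 0, at 0.20 to 0.89, and TARS3 and VARS2 have intervals that cross the 2-fold line.

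Replicate spread was as wide as the group difference for most members, at a share close to that over all genes. At least 1 pair of replicates differed by more than the fitted group difference for 31 of the 38 members (81.6%), against 80.5% of all genes tested. The LGP2 overexpression pair did so for 22 members (57.9%), against 58.5% of all genes, and the vector pair for 25 (65.8%), against 64.7%. Vector replicate 3 stood lowest for the cytosolic genes, with a median deviation of -0.14 from a gene's mean log2 CPM, against 0.01 over all genes. FARSA had 68.4 and 71.5 CPM in LGP2 overexpression libraries, against 91.5 and 56.0 CPM in vector libraries. Its values with LGP2 thus lay between the vector values, as did those of AARS1, at 251 and 246 CPM with LGP2, against 319 and 233 CPM with vector. The subunits FARSA and FARSB form the cytosolic phenylalanine enzyme together, and their level ratio per kilobase was 0.928 and 0.804 in LGP2 overexpression libraries, against 1.17 and 0.836 in vector libraries. Both LGP2 overexpression libraries lay above both vector libraries for 9 members (23.7%), against 16.7% of all genes, and below both for 3 members (7.89%), against 16.5%. The 9 included EPRS1, IARS1, KARS1, LARS1, TARS1, TARS3, HARS2 and SARS2, and the 3 were FARS2, MARS2 and PARS2.

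The multisynthetase complex holds the member with the smallest p. EPRS1, which besides charging tRNA takes part in a complex that silences inflammatory mRNAs in interferon-gamma-treated monocytes, is a minus-strand gene spanning bases 219968601 to 220046658 of chromosome 1 in GENCODE 29. It had 5871 and 8478 counts in LGP2 overexpression libraries, against 4651 and 5126 counts in vector libraries. In CPM this was 117 ± 18.3 with LGP2 and 80.5 ± 5.57 with vector (SD, n = 2 each), without overlap. Its overexpressing pair, at 104 and 130 CPM, lay further apart than the nearest libraries across groups, at 104 and 84.4 CPM. By edgeR its log2 fold change was 0.54 with SE 0.15 and adjusted p = 0.963, and leaving out 1 library moved it between 0.37 and 0.69.

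IARS1, the isoleucine enzyme, had 214 and 238 CPM in LGP2 overexpression libraries, against 175 and 193 CPM in vector libraries. Its log2 fold change was 0.30, with SE 0.15 and an edgeR adjusted p = 0.998. LARS1, the leucine enzyme, which also senses leucine for the growth kinase mTORC1, had 141 and 165 CPM with LGP2, against 129 and 135 CPM with vector, a log2 fold change of 0.21 (SE 0.14). Neither overlapped between groups, but in both the overexpressing pair differed by more CPM than the nearest libraries of the 2 groups did. The other enzymes of the complex apart from KARS1 overlapped between groups. RARS1 was at a log2 fold change of 0.13, and MARS1 and QARS1 (glutamine) at -0.03 and -0.04. Over the 8 enzymes of the complex, 6 lay above 0 with a median of 0.12, and over the 13 cytosolic genes outside it 8 lay above 0 with a median of 0.03.

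Outside the complex, TARS3 had the largest fitted value. It had 383 and 529 counts in LGP2 overexpression libraries, against 306 and 334 counts in vector libraries, or 6.81 and 8.13 CPM, against 5.03 and 5.50 CPM. Its log2 fold change was 0.50 (SE 0.25, adjusted p = 0.998 by edgeR). TARS1, the main threonine enzyme, was at 0.22 (SE 0.15), with 182 and 217 CPM with LGP2, against 165 and 178 CPM with vector. Its groups did not overlap, but the overexpressing pair differed by more CPM than the nearest libraries across groups did. AARS1 and VARS1 had the smallest p among cytosolic genes below 0, at log2 fold changes of -0.15 (SE 0.17) and -0.10 (SE 0.17). VARS1 had 71.4 and 66.4 CPM in LGP2 overexpression libraries, against 85.0 and 62.8 CPM in vector libraries, so its groups overlapped. Without vector replicate 2 both turned above 0, at 0.09 and 0.13.

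WARS1, the tryptophan enzyme, is the family member known to be induced by interferon gamma. It had 131 and 118 CPM in LGP2 overexpression libraries, against 135 and 121 CPM in vector libraries, a log2 fold change of -0.04 (SE 0.14) with an interval of -0.35 to 0.28. Of 12 interferon-gamma response genes, 5 lay above and 7 below 0 with a median of -0.03 and 0 calls, also at an unadjusted p under 0.05. GBP1, a guanylate-binding protein, was at 0.23 (SE 0.22), the immunoproteasome subunit PSMB9 at -0.12 (SE 0.15) and IFI30, a lysosomal thiol reductase, at -0.22 (SE 0.15). IFI30 shares exons with AC007192.1, a gene called higher in the whole table, so its counts are uncertain.

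Among mitochondrial members, MARS2 and VARS2 had the smallest p. MARS2 had 284 and 374 counts in LGP2 overexpression libraries, against 454 and 422 counts in vector libraries, or 5.40 ± 0.493 CPM with LGP2 and 7.21 ± 0.369 CPM with vector (SD, n = 2 each). The groups did not overlap, and the log2 fold change was -0.42 (SE 0.25, adjusted p = 0.998 by edgeR). VARS2 had 793 and 653 counts in LGP2 overexpression libraries, against 395 and 659 counts in vector libraries, which overlapped. Its log2 fold change of 0.48 (SE 0.28) was 0.15 without vector replicate 2 and 0.89 without vector replicate 3.

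PARS2, the mitochondrial proline enzyme, had 426 and 534 counts in LGP2 overexpression libraries, against 571 and 605 counts in vector libraries. In CPM these were 7.57 and 8.20 with LGP2, against 9.39 and 9.96 with vector, without overlap, a log2 fold change of -0.29 (SE 0.22). With EPRS1 it formed the pair with the largest difference between compartments, -0.84 as mitochondrial minus cytosolic log2 fold change. The opposite extreme was the valine pair at 0.58, which rests on VARS2. FARS2 had 16.8 and 17.1 CPM in LGP2 overexpression libraries, against 18.4 and 17.3 CPM in vector libraries, a log2 fold change of -0.08 (SE 0.19). HARS2 varied least between replicates, with 87.4 and 87.9 CPM with LGP2, against 82.1 and 82.3 CPM with vector, and a log2 fold change of 0.09 (SE 0.13). The other mitochondrial members lay between -0.05 for YARS2 and 0.23 for SARS2.

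The fitted differences of cytosolic members moved with base composition and, less closely, with transcript length. Across the 21 cytosolic genes, log2 fold change and transcript GC content had a Pearson r of -0.69 and a Spearman rho of -0.73, against -0.18 and -0.34 across 17469 tested genes; for the 17 mitochondrial genes r was 0.15. With log2 transcript length, Pearson r was 0.44 across the cytosolic and 0.27 across the mitochondrial genes, against 0.10 across all these tested genes. All of these are descriptions across genes, which share libraries and are not independent replicates. Under the median GC content of all tested genes, 49.1%, 15 of 17 members lay above 0, against 64.5% of all genes there, and at or over it 11 of 21, against 33.1%. EPRS1 (43.2% GC), IARS1 (43.6%), LARS1 (41.5%) and FARSB (41.6%) were among the members of low GC content, and VARS1 (62.6%) and FARSA (61.4%) among those of high GC content. In a fit with GC and length offsets, EPRS1 was at 0.40, IARS1 at 0.17, LARS1 at 0.03 and FARSB at 0.01, against 0.54, 0.30, 0.21 and 0.17 without offsets. With offsets the Pearson r with GC content was -0.23 over the cytosolic and 0.49 over the mitochondrial genes. Of members under the median GC content, 12 of 17 then lay above 0, with 17 of 21 at or over it. TARS3, at 0.45, and MARS2, at -0.40, moved little. With offsets the median was 0.08 over all members, 0.04 over cytosolic and 0.12 over mitochondrial genes. The offsets took out GC content and length together, so the part of either in any single difference cannot be told apart and was not tested.

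**Figure D4:**
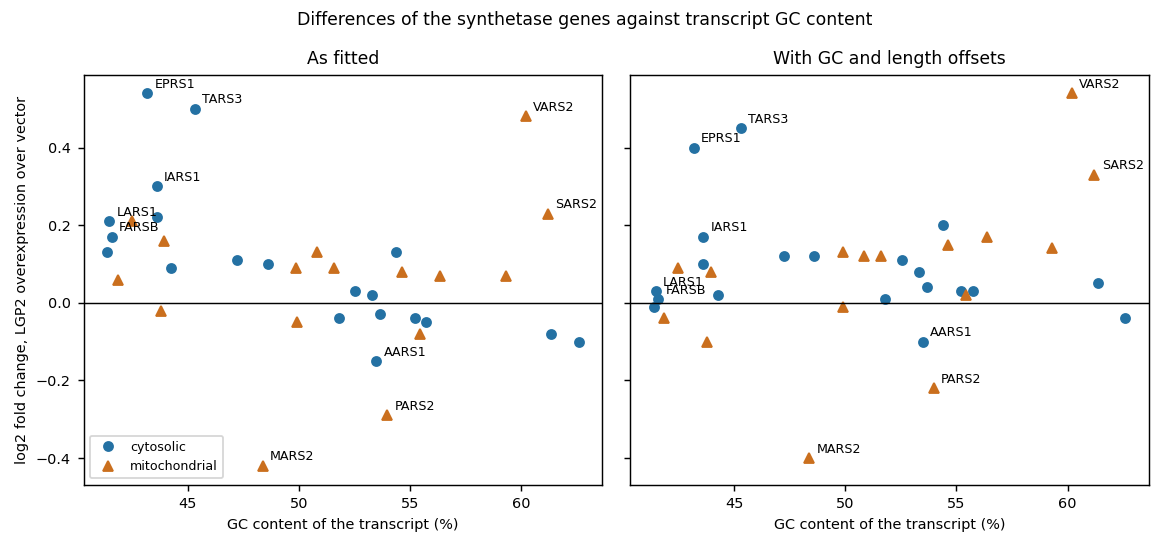
Log2 fold change of LGP2 overexpression over vector against transcript GC content for 36 synthetase genes, as fitted (left) and with GC and length offsets (right); circles are cytosolic and triangles mitochondrial genes. Pearson r over all 21 cytosolic genes is -0.69 as fitted and -0.23 with offsets, and EPRS1 moves to 0.40 with offsets, against 0.54 as fitted.

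ATF4, its listed targets and other genes of the amino acid response gave no call. ATF4, named after its values were seen, had 671 and 651 CPM in LGP2 overexpression libraries, against 896 and 635 CPM in vector libraries, a log2 fold change of -0.21 (SE 0.19) with overlapping groups. The 12 synthetases commonly listed as ATF4 targets had 8 members above 0 and a median of 0.06, against 6 of 9 and 0.11 for the other cytosolic genes. The 7 cytosolic genes with the motif ran from -0.15 for AARS1 to 0.30 for IARS1. A list of 34 other genes of the ATF4 and amino acid response held ATF4 itself and the kinase gene EIF2AK2 beside ATF4 targets. Of the 34, 14 lay above and 20 below 0 with a median of -0.09. By edgeR 0 were called, and 2 were higher and 2 lower at an unadjusted p under 0.05. SLC7A11, the cystine transporter, had 275 and 273 CPM in LGP2 overexpression libraries, against 177 and 236 CPM in vector libraries, a log2 fold change of 0.41 (SE 0.17). EIF2AK2, the RNA-activated kinase PKR, had 72.3 and 83.5 CPM with LGP2, against 47.4 and 68.3 CPM with vector, a log2 fold change of 0.43 (SE 0.18). PPP1R15A, a phosphatase subunit that ends the stress response, had 134 and 124 CPM with LGP2, against 296 and 133 CPM with vector, and ATF3 had 18.9 and 15.7 CPM with LGP2, against 45.2 and 18.1 CPM with vector. Both had their highest value in vector replicate 2. Their log2 fold changes, -0.74 (SE 0.29) and -0.87 (SE 0.34), did not pass and stood at -0.04 and -0.06 without vector replicate 2. In the fit that leaves out vector replicate 3 these became -1.21 and -1.39, with SLC7A11 at 0.63 and EIF2AK2 at 0.71. That fit takes its spread from the LGP2 overexpression pair alone. SLC7A11 was at 0.22 without vector replicate 2 and at 0.12 with GC and length offsets, and EIF2AK2 was at 0.19 in both.

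Genes that work beside the synthetases gave no call by edgeR either. Of 18 partners, namely complex scaffolds, editing and amidotransferase subunits, selenocysteine enzymes and elongation factors, 10 lay above and 8 below 0 with a median of 0.06, and 0 passed even at an unadjusted p under 0.05. SEPSECS, the last enzyme of selenocysteine synthesis, was at 0.41 (SE 0.30) and GATB, a subunit of the mitochondrial amidotransferase, at 0.20 (SE 0.19). SEPSECS was at 0.15 without vector replicate 2 and with offsets, and at 0.73 without vector replicate 3. MTFMT, which formylates the mitochondrial initiator tRNA, was at -0.24 (SE 0.19). EEF1A2, an elongation factor that delivers charged tRNA, had 52.0 and 51.1 CPM in LGP2 overexpression libraries, against 81.1 and 52.6 CPM in vector libraries, a log2 fold change of -0.38 (SE 0.20). It was at -0.66 without vector replicate 3 and at -0.03 without vector replicate 2.

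Of 40 tRNA maturation genes, 21 lay above and 19 below 0 with a median of 0.04, and 1 was higher and 1 lower at an unadjusted p under 0.05. POLR3B, a subunit of the polymerase that transcribes tRNA genes, had 7.55 and 8.71 CPM in LGP2 overexpression libraries, against 4.38 and 6.12 CPM in vector libraries, a log2 fold change of 0.63 (SE 0.27). TRNT1, which adds the CCA end that synthetases charge, was at 0.43 (SE 0.21) and MAF1, a repressor of that polymerase, at -0.17 (SE 0.15). TRNT1 was at 0.18 without LGP2 overexpression replicate 3, at 0.65 without LGP2 overexpression replicate 2 and at 0.21 with offsets. PRORP, the nuclease that trims mitochondrial tRNAs, had 30.5 and 49.0 CPM with LGP2, against 61.1 and 55.6 CPM with vector, a log2 fold change of -0.55 (SE 0.21) that moved to -0.25 when LGP2 overexpression replicate 2 was left out and to -0.94 when replicate 3 of that group was. PRORP shares exons with AL121594.1, 1 of the 3 genes called in the whole table, so its counts are uncertain. DESeq2 and limma-voom, like edgeR, called 0 genes in each of the 4 lists of partner, tRNA maturation, ATF4 response and interferon-gamma response genes.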

How the data were processed

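RNA-seq counts of 4 T98G libraries, 2 with LGP2 overexpressed and 2 with vector, were analysed. The values deposited by the authors are whole-number read counts for each gene symbol. The build listed in the submitters' processing notes is mm10, which is murine, whereas the gene symbols are human; aligner, counter, annotation and strand use were not given in the sources used here. Per the labels' protocols, Trizol RNA went into a SMARTER library kit.

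Counts were tested with edgeR 4.0.16 (quasi-likelihood, TMM scaling, filterByExpr, two-sided) in R 4.3.3 over all genes. The filter left 17863 of 20913 genes, and genes with an adjusted p under 0.05 were called. CPM uses TMM-scaled totals; SEs come from the F statistic and cover the spread between these libraries only. Fold changes are LGP2 overexpression over vector. Lists are described by counts and medians, with no set test. Coordinates, lengths (longest principal coding transcript) and GC come from GENCODE 29 on GRCh38, where 19776 symbols matched directly and 498 through newer symbols; promoter sequences come from RefSeq on GRCh38.p14.

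A few genes stay in the counts and medians but are not reported here by name or drawn. Members and lists were chosen with earlier results of these data known. Named are the 5 members with the smallest p in each direction, the 2 highest and 2 lowest per kilobase in each compartment, the most different pair and, per list, the 2 genes with the smallest p in each direction; other genes named, and the split at 49.1% GC, were chosen after their values were seen. Alternatives were a replicate block, leaving out each library, DESeq2 size factors, upper-quartile scaling, no filter, at least 5 CPM in 2 libraries, DESeq2 1.42.0 and limma-voom (limma 3.58.1). GC and length offsets (splines with 5 degrees of freedom) were added after seeing the data. On simulated data for this comparison, 17484 or more genes were tested, with dispersions of these libraries. The fit recovered 10% of genes changed 1.5-fold, 50% at 2-fold and 93.3% at 4-fold. Changed genes were drawn from expressed genes at large, not from the synthetases. More genes were changed there than were called in the data, which eases the adjusted threshold, so these shares may not hold for the synthetases.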

Additional observations from a re-analysis of the deposited data

How the results depend on the processing

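The 3 genes called in the whole table became 8 with the replicate block, 1 with no filter, 6 at 5 CPM or more in 2 libraries, 22 with DESeq2, 6 with limma-voom and 2, 7, 78 and 432 without LGP2 overexpression replicate 2, LGP2 overexpression replicate 3, vector replicate 2 and vector replicate 3, in that order. A fit without 1 library takes its spread from the remaining pair alone. Called synthetases stayed at 0 except without vector replicate 3 (0 to 1 without 1 library). The replicate block changed no call of a member; deviations of same-numbered libraries correlated at 0.031 across genes, so the numbers were not taken to pair the samples. Members above 0, 26 of 38, ran from 22 without vector replicate 3 to 33 without vector replicate 2. Without 1 library, the cytosolic median ran from 0.04 to 0.18, the mitochondrial median from 0.02 to 0.11 and the median difference within pairs from -0.10 to 0.04. In the same fits, list medians ran from -0.09 to 0.15 for partners and -0.03 to 0.12 for tRNA maturation. They ran from -0.14 to 0.01 for the ATF4 and amino acid response and -0.06 to -0.0040 for the interferon-gamma response. With GC and length offsets the medians were 0.12 for mitochondrial genes, 0.05 within pairs, -0.01 for the ATF4 and amino acid response and 0.05 for the interferon-gamma response.

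Direction held for 15 of the 36 members reported by name in every alternative tried, EPRS1, IARS1, TARS3, VARS2, LARS1, MARS2 and PARS2 among them. It turned for 19 without some library, where log2 fold changes ran from -0.36 to 0.09 (AARS1), -0.11 to 0.15 (CARS1), -0.39 to 0.32 (FARSA), -0.0035 to 0.19 (GARS1), -0.05 to 0.28 (HARS1), -0.20 to 0.16 (MARS1), -0.09 to 0.25 (NARS1), -0.16 to 0.08 (QARS1), -0.13 to 0.22 (SARS1), -0.30 to 0.13 (VARS1), -0.11 to 0.04 (WARS1), -0.22 to 0.14 (YARS1), -0.07 to 0.23 (CARS2), -0.06 to 0.26 (EARS2), -0.18 to 0.17 (IARS2), -0.01 to 0.27 (LARS2), -0.03 to 0.33 (NARS2), -0.01 to 0.13 (RARS2) and -0.20 to 0.08 (YARS2), and from -0.01 to 0.43 for the partner GATB. Without 1 library, POLR3B ran from 0.41 to 0.89, GBP1 from 0.02 to 0.43, MAF1 from -0.28 to -0.07 and IFI30 from -0.32 to -0.11. With offsets it turned for 8: FARSA (0.05), MARS1 (0.04), QARS1 (0.03), RARS1 (-0.01), WARS1 (0.01), YARS1 (0.03), FARS2 (0.02) and RARS2 (-0.04), and for PSMB9 (0.03). The causes were not tested. Limits: with 2 libraries per group, changes of 2-fold or less in these genes could often go uncalled.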
